A study of Mus musculus with 12 samples.

Results

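The genes described here are 9 genes of retinoid transport and signaling, out of 45706 genes measured in BN1-Tie2-EGFP cells, a murine hepatoblastoma (HB) line. They are the carrier Rbp4, its membrane receptor Stra6, the cytoplasmic binding protein Crabp2, the retinaldehyde dehydrogenases Aldh1a1, Aldh1a2 and Aldh1a3, and the retinoic acid receptors Rara, Rarb and Rarg. The 9 genes were picked by name, and Stra6 and Rbp4 had been selected on their measured rise in sorted cells. Levels of the 9 genes in sorted against unsorted cells are therefore given as a description with no test, and Stra6 and Rbp4 have no test in any comparison. All 9 passed the filter on low values described below.

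Retinol leaves the liver bound to RBP4 in the blood, and STRA6 on the surface of target cells takes it up from this carrier. Inside the cell retinol is oxidized to retinaldehyde, and the ALDH1A enzymes then oxidize retinaldehyde irreversibly to retinoic acid. CRABP2 hands retinoic acid to the nuclear receptors RARα, RARβ and RARγ, which bind DNA with retinoid X receptors (RXRs), while CYP26 enzymes degrade it. In the liver, hepatocytes secrete RBP4 and stellate cells store retinyl esters.

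BN1 cells came from a mouse liver tumor made with mutant β-catenin and mutant NRF2, carry a disrupted Cdkn2a gene, and were stably transfected with EGFP under the Tie2 (Tek) promoter, with clones pooled. Unsorted normoxic cells (UN) grew in 21% oxygen, and unsorted hypoxic cells (UH) were kept in 1% oxygen for 2 days. Sorted normoxic cells (SN) had been exposed to 1% oxygen for 2 days, sorted for EGFP and grown for about 10 days without hypoxia, and sorted hypoxic cells (SH) were such cells returned to 1% oxygen for 2 days. Each group had 3 RNA-seq libraries. Sorting, the earlier hypoxia and the expansion distinguish SN and SH from UN and UH together and cannot be told apart. The p-values below measure the spread between these libraries. The paper calls them independent replicas but does not say what was independent, or whether SN and SH came from a single sort. Spread between sorts may therefore not be covered. Levels are TPM, which give each gene's share of all transcripts, corrected for transcript length and summing to 1000000 in each library, so the depth behind them is unknown.

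The labels were checked against known genes. Tek averaged 0.133 TPM in UN, 0.156 in UH, 2.49 in SN and 3.04 in SH. Of 8 hypoxia-induced genes, 7 (Vegfa, Slc2a1, Egln3, Ankrd37, Bnip3, Pdk1 and Adm, but not Car9) were called higher in UH vs UN, and the same 7 in SH vs SN. A gene was called at a limma adjusted p under 0.05 (Benjamini-Hochberg) and an absolute log2 fold change above 1 on the log2(TPM + 1) scale, which understates changes of low genes. Hepatocyte markers were low, since 12 of them summed to 9.38 to 19.1 TPM in UN, 1.88 to 9.29 in UH, 0.541 to 2.43 in SN and 1.01 to 1.34 in SH, and 7, among them Apoa1 and Ttr, stayed below 1 TPM in every library, with Apob the most abundant over all libraries. Of 12 endothelial markers, 8 stayed below 1 TPM in every library, including Pecam1, Cdh5 and Kdr, and the summed level was 13.8 to 15.04 TPM in UN, 26.6 to 35.9 in UH, 5.59 to 6.10 in SN and 12.6 to 17.8 in SH, with Egfl7 the most abundant in UN, Flt1 in UH and Esam in SN and SH. The summed level of 6 cholangiocyte markers was 2844 to 3252 TPM in UN, 1182 to 1232 in UH, 4293 to 4876 in SN and 1017 to 1178 in SH, mostly Spp1, with Epcam below 1 TPM. In the same list Krt19 averaged 62 TPM in UN and 481 in UH, against 0.837 in SN and 4.87 in SH, and Krt7 2.07, 2.67, 5.48 and 12.7. Of 7 macrophage markers, 5 stayed below 1 TPM and Clec4f was listed at 0, and the sum was 4.48 to 8.07 TPM in UN, 20.6 to 21.7 in UH, 9.54 to 14.1 in SN and 58.8 to 62.4 in SH, with Cd68 the most abundant.

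The library UN1 stood apart from the other UN libraries. In UN1, 777 genes differed by more than 1 log2 unit from both other libraries of its group, against 96 to 250 genes for any other library. The summed level of 8 fibroblast markers was 4283 TPM in UN1, 1136 in UN2 and 998 in UN3, 4564 to 6827 in UH, 127 to 139 in SN and 37.7 to 63.0 in SH, with Lum and Thy1 below 1 TPM throughout. In UN1 Col3a1 (1960 TPM) was above Col1a1 (1186 TPM), whereas Col1a1 was the higher in UN2 (499 against 222 TPM) and UN3 (428 against 173 TPM). The highest mean was that of Col1a1 in UH (3051 TPM) and Dcn in SN (119 TPM) and SH (25.4 TPM), while Col1a1 averaged 704 TPM in UN and 6.66 in SN. Other markers of the list went against the sum, with Pdgfra at 80.4, 168 and 176 TPM in UN1, UN2 and UN3 and a mean of 28.4 in UH, and Dcn at a mean of 172 in UN and 53.8 in UH. Several values below are given with and without UN1, and the part of the markers in the levels was not tested. In such bulk RNA, fewer cells of a type and less RNA per cell cannot be told apart.

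Rbp4, the plasma carrier of retinol, was at 92.0, 64.1 and 73.7 TPM in the UN libraries and at 243, 199 and 229 TPM in UH. In the sorted cells it was at 254, 269 and 247 TPM in SN and at 238, 234 and 195 TPM in SH. UN was thus the only group with low Rbp4, and its libraries lay below those of every other group. SN libraries were the highest and did not overlap with those of UH or SH, whereas UH and SH overlapped. The ratio of group means was 2.92 for UH over UN and 3.35 for SN over UN, and 0.996 for SH over UH. On the log2 scale the change was 1.54 in UH vs UN (SE 0.133) and −0.21 in SH vs SN (SE 0.133).

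Stra6, the retinol uptake receptor, was at 20.2, 18.8 and 18.6 TPM in UN and at 9.34, 10.3 and 10.9 TPM in UH. It was at 142, 159 and 128 TPM in SN and at 185, 160 and 86.9 TPM in SH. Every sorted library lay above every unsorted library, the UH libraries all lay below the UN libraries, and SN and SH overlapped, with SH3 the lowest of the sorted libraries. The mean ratio was 7.45 for SN over UN and 14.2 for SH over UH. The log2 difference between UH and UN was −0.85 (SE 0.218), and −0.52 after median-of-ratios scaling. Between SH and SN it was −0.05 (SE 0.218), and 0.27 without SH3.

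Among the 18909 genes tested, Stra6 ranked 32 by log2 fold change in SN vs UN and 10 by that of SH vs UH. Rbp4 ranked 169 in SN vs UN but 12339 in SH vs UH, since its level in UH was already near that of the sorted cells. Aldh1a1 ranked 50 and 745. The share of all genes called higher in SN vs UN was 3.20%, with 7.57% lower, and for SH vs UH the shares were 7.65% and 5.35%, which after median-of-ratios scaling were 5.41% and 7.02%.

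**Figure D1:**
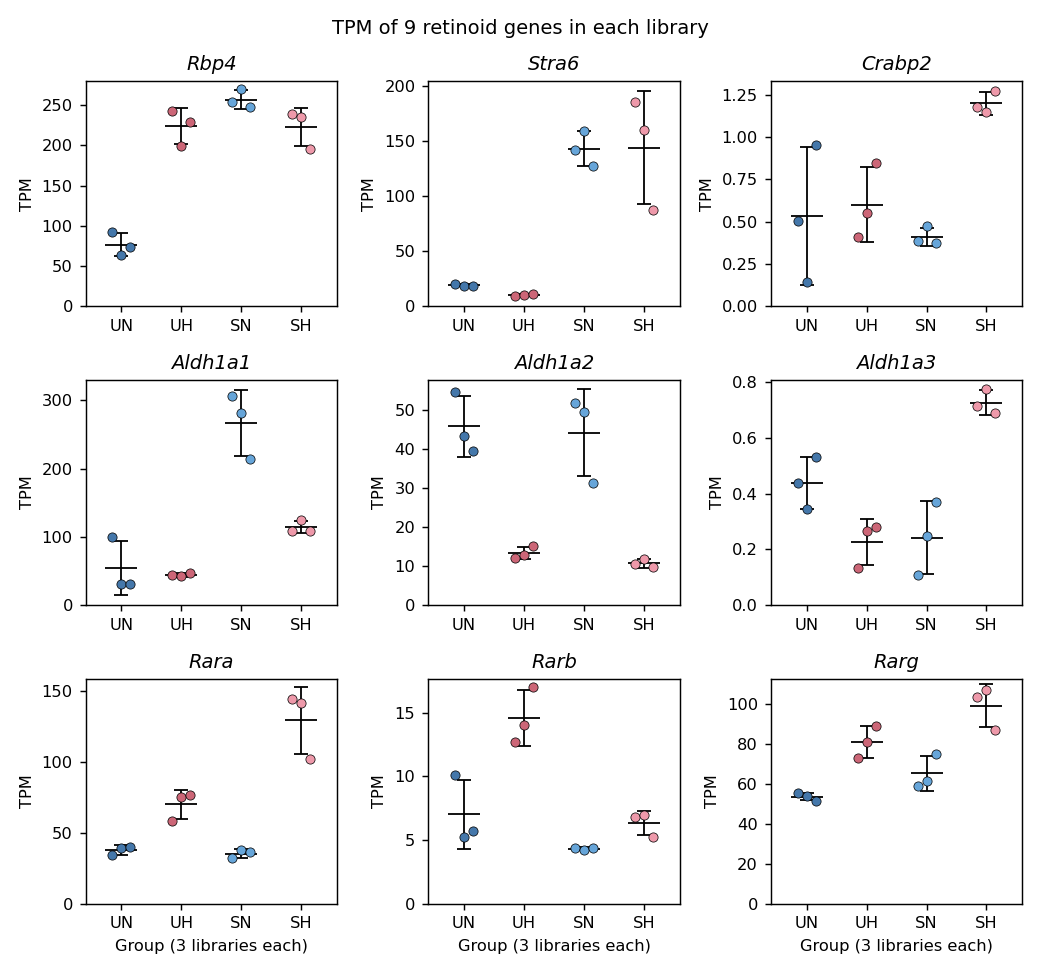
TPM (vertical axes, linear from 0) of the 9 retinoid genes in the groups UN, UH, SN and SH (horizontal axes). Points are single libraries, and bars give the mean ± SD of 3 libraries. Stra6 was at 86.9 TPM or above in every sorted library and at 20.2 TPM or below in every unsorted library.

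Crabp2, which delivers retinoic acid to the nucleus, was scarce. It was at 0.504, 0.142 and 0.954 TPM in UN, 0.407, 0.550 and 0.846 TPM in UH, 0.384, 0.473 and 0.372 TPM in SN and 1.18, 1.15 and 1.27 TPM in SH. The SH libraries were the highest of all 12, and the other groups overlapped. The log2 change was 0.64 in SH vs SN (SE 0.175, limma adjusted p = 0.0117), under the fold threshold on the log2(TPM + 1) scale, where the ratio of means was 2.93. For UH vs UN it was 0.09 (SE 0.175, limma adjusted p = 0.724), and the difference between these responses was 0.55 (limma adjusted p = 0.130).

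Other carriers and uptake receptors were examined as 10 genes, of which 9 were tested. By limma, 4 were called lower and 0 higher in SN vs UN (6 and 0 at an unadjusted p under 0.05), and 3 lower and 1 higher in SH vs UH. The share lower was 44.4% in SN vs UN, beside 7.57% of all genes, and 33.3% in SH vs UH, beside 5.35%. For hypoxia, 1 was higher and 1 lower in UH vs UN (11.1% each, beside 5.46% and 11.8% of all genes). In SH vs SN 2 were higher and 1 lower (22.2% and 11.1%, beside 7.47% and 5%). The gene lower in SH vs SN was Lrp2 (−1.003). Its call was lost after median-of-ratios scaling, in a fit of SH and SN alone, and without SN1, SN2 or SH3. Crabp1, the other cytoplasmic retinoic acid binder, was at 18.2, 4.97 and 4.86 TPM in UN, and SN vs UN gave a log2 change of −1.74, or −1.18 without UN1. Rbp2 averaged 5.53 TPM in UN, 7.73 in UH and 1.88 in SN, and rose to 16.9 in SH (limma log2 fold change in SH vs SN 2.66, SE 0.227, adjusted p = 5.15e-06). The 1 gene higher in SH vs UH was Rbp2 (1.07), and this call was lost without UH2 (0.91) and after median-of-ratios scaling (0.87). Ttr, the plasma partner of RBP4, was at or below 0.474 TPM in every library and was not tested.

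Retinyl ester storage was represented by Lrat, the main retinol esterifying enzyme of stellate cells, which was listed at 0 in all 12 libraries. Among 12 stellate markers, Lrat, Reln, Gfap, Vipr1 and Rgs5 stayed below 1 TPM in every library. Their summed level was 164 to 303 TPM in UN, 648 to 812 in UH, 260 to 290 in SN and 263 to 324 in SH, and Ecm1 was the most abundant. Ecm1 alone averaged 151 TPM in UN and 714 in UH, while Pdgfrb averaged 44.7 and 15.2, Hand2 7.02 and 3.62 and Ngfr 2.82 and 0.209. Of 6 adipocyte markers, 4 including Adipoq stayed below 1 TPM, and the sum was 14.8 to 43.0 TPM in UN, 18.1 to 21.3 in UH, 4.66 to 5.09 in SN and 3.30 to 5.36 in SH, with Fabp4 the most abundant in UN and UH and Pparg in SN and SH. Ces1d, an esterase, rose in SN vs UN (log2 fold change 1.38, limma adjusted p = 0.000115) and fell in SH vs SN (−1.79, limma adjusted p = 1.38e-05). It averaged 0.549 TPM in UN, 0.0973 in UH, 3.11 in SN and 0.168 in SH. In UH vs UN it was not called, but with a pseudocount of 0.1 it was called lower (−1.85).

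The ALDH1A enzymes make retinoic acid. Aldh1a1 was at 100.01, 31.4 and 31.0 TPM in UN, 44.02, 42.0 and 47.3 TPM in UH, 307, 281 and 214 TPM in SN and 109, 124 and 109 TPM in SH. The SN libraries were the highest and SH followed, both above all unsorted libraries, whereas UN1 was far above the rest of its group. The mean ratio was 4.93 for SN over UN and 2.57 for SH over UH, and the log2 difference between SN and UN was 2.49, or 3.04 without UN1.

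Aldh1a1 fell in SH vs SN by 1.2 on the log2 scale (SE 0.346, limma adjusted p = 0.0154), with every SH library below every SN library. Without SN1 the change was −1.10 and the limma adjusted p was 0.0561, in a range of 0.000644 to 0.0561 over the alternatives. In UH vs UN the change was −0.05 (SE 0.346, limma adjusted p = 0.923), and 0.50 without UN1. The difference between the responses was −1.15 (SE 0.490, limma adjusted p = 0.114) and did not pass. Without UN1 it was −1.70 with a limma adjusted p of 0.000125, in a range of 0.000125 to 0.244 over the alternatives.

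Aldh1a2 was at 54.5, 43.2 and 39.5 TPM in UN and at 51.7, 49.4 and 31.2 TPM in SN. In hypoxia it was at 11.99, 12.7 and 14.98 TPM in UH and at 10.5, 11.8 and 9.67 TPM in SH. All hypoxic libraries lay below all normoxic ones, and UN and SN overlapped. Aldh1a2 fell by 1.71 in UH vs UN (SE 0.188, limma adjusted p = 1.95e-05) and by 1.92 in SH vs SN (SE 0.188, limma adjusted p = 1.38e-05). These responses differed by −0.21 (95% interval −0.79 to 0.37, limma adjusted p = 0.596). Aldh1a2 was called lower in both comparisons under every alternative tried.

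Aldh1a3 was scarce, at 0.439, 0.344 and 0.531 TPM in UN, 0.132, 0.267 and 0.279 TPM in UH, 0.107, 0.249 and 0.371 TPM in SN and 0.715, 0.776 and 0.690 TPM in SH. Its highest levels were in SH, above all other libraries, and UH lay below UN without overlap. The log2 change was 0.48 in SH vs SN (SE 0.109, limma adjusted p = 0.00409) and −0.23 in UH vs UN (limma adjusted p = 0.106). The difference between the responses was 0.71 (SE 0.154, limma adjusted p = 0.00770). None of these passed the fold threshold on the log2(TPM + 1) scale, while SH over SN had a mean ratio of 3.00.

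The 3 Aldh1a genes together summed to 100.3 ± 47.3 TPM (SD, n = 3) in UN, 57.9 ± 4.09 in UH, 312 ± 59.0 in SN and 126 ± 9.89 in SH. Aldh1a1 made up 54.0% of the sum in UN, 76.8% in UH, 85.8% in SN and 90.9% in SH, and Aldh1a2 made up 45.6%, 22.8%, 14.2% and 8.50%. Aldh1a2 thus held its largest share in UN and its smallest in SH. The larger share of Aldh1a1 in UN rests on UN1, since in UN2 and UN3 Aldh1a2 was the higher (43.2 against 31.4 TPM, and 39.5 against 31.0 TPM).

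**Figure D2:**
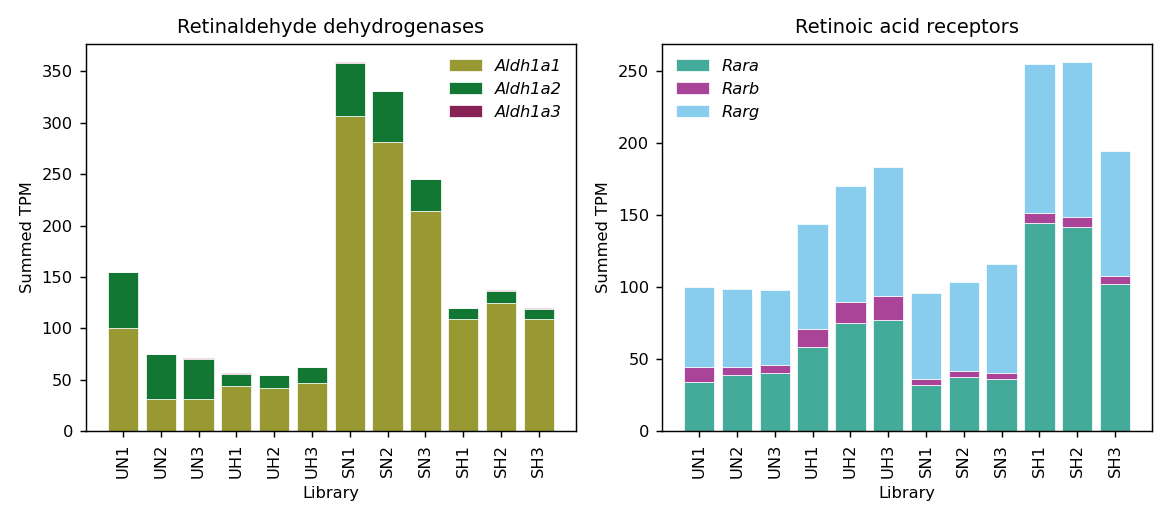
Summed TPM (vertical axes) of the 3 retinaldehyde dehydrogenase genes on the left and the 3 retinoic acid receptor genes on the right, in each of the 12 libraries (horizontal axes), with a colored segment for each gene. Aldh1a1 filled most of each bar in SN and SH, Aldh1a3 was below 0.78 TPM and is too small to see, and the receptor sum averaged 235 TPM in SH against 105 in SN.

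Upstream of these enzymes, retinol and retinaldehyde are interconverted by dehydrogenases of which 19 genes were examined and 16 tested. By limma, 2 were called in UH vs UN, both lower, 2 in SH vs SN, both higher, 2 in SN vs UN, both lower, and 1 in SH vs UH, higher. Each count of 2 is 12.5% of the list, beside 11.8%, 7.47% and 7.57% of all genes in these directions, and the 1 is 6.25%, beside 7.65%. Dhrs3, which reduces retinaldehyde back to retinol, averaged 82.6 TPM in UN, 101 in UH, 30.1 in SN and 80.5 in SH. It rose in SH vs SN (log2 fold change 1.36, SE 0.174, limma adjusted p = 9.13e-05) and was lower in SN than in UN (−1.42, limma adjusted p = 8.94e-05). Rdh10, which oxidizes retinol to retinaldehyde, averaged 15.1 TPM in UN and 28.4 in SH, and its call in SH vs UH (log2 fold change 1.02) was lost without UH1 or SH2 (0.95 for each) and after median-of-ratios scaling (0.81). Rdh5 rose in SH vs SN (2.04, limma adjusted p = 5.35e-06), and Dhrs9 fell in UH vs UN (−2.38, limma adjusted p = 8.24e-05). In UH vs UN the Rdh5 change was 0.84, under the fold threshold. It was called higher there after median-of-ratios scaling (1.14) and without UN1 (1.02). Adh7 was at 0.317, 6.64 and 5.91 TPM in UN and fell in UH vs UN by 1.77, or by 2.59 without UN1. Its call was lost without UN2 (−1.32) or UN3 (−1.39), and in a fit of UN and UH alone (limma adjusted p = 0.0550, in a range of 1.75e-06 to 0.0619 over the alternatives). In SN vs UN the Adh7 change was −0.31 and not called, but it was called lower without UN1 (−1.13, limma adjusted p = 0.000641).

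Each retinoic acid receptor gene had a higher mean in the hypoxic groups than in the matching normoxic groups. Rara was at 34.1, 39.3 and 40.3 TPM in UN, 58.3, 75.3 and 77.0 TPM in UH, 32.1, 37.8 and 36.3 TPM in SN and 144, 142 and 102 TPM in SH. Normoxic libraries overlapped between UN and SN, UH lay above both, and SH lay above UH. Rara rose in SH vs SN by a log2 fold change of 1.83 (SE 0.150, limma adjusted p = 3.97e-06), with a mean ratio of 3.66. In UH vs UN the change was 0.86 (SE 0.150, limma adjusted p = 0.000588), under the fold threshold as deposited and above it after median-of-ratios scaling (1.21). The difference between the responses was 0.96 (SE 0.213, limma adjusted p = 0.00856), also just under the fold threshold. It was 1.04 without UN1, and passed as well when UH2, UH3, SN2 or SH3 was left out, at 1.01 to 1.12, while after median-of-ratios scaling it was 0.62.

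Rarb was at 10.1, 5.24 and 5.70 TPM in UN, 12.7, 14.0 and 17.0 TPM in UH, 4.38, 4.20 and 4.41 TPM in SN and 6.79, 6.998 and 5.23 TPM in SH. UH libraries were the highest and SN libraries the lowest, and UN and SH overlapped. The log2 change in UH vs UN was 1.00 (0.99924, SE 0.211, limma adjusted p = 0.00214), just under the fold threshold. It passed at 1.26 without UN1, at 1.09 without UH1, at 1.02 without UH2, at 1.32 after median-of-ratios scaling and at 1.10 with a pseudocount of 0.1. In SH vs SN it was 0.45 (SE 0.211, limma adjusted p = 0.110). The difference between the responses was −0.55 (95% interval −1.199 to 0.106, limma adjusted p = 0.208). Without UN1 it was −0.81, under the fold threshold, with a limma adjusted p of 0.0155, in a range of 0.0155 to 0.406 over the alternatives.

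Rarg was at 55.6, 53.9 and 51.7 TPM in UN, 73.1, 81.0 and 89.2 TPM in UH, 59.2, 61.7 and 75.2 TPM in SN and 104, 107 and 86.9 TPM in SH. In each hypoxic group all libraries lay above the matching normoxic group, UH and SH overlapped, and SN lay above UN. The log2 change was 0.58 in UH vs UN (SE 0.118, limma adjusted p = 0.00167) and 0.60 in SH vs SN (SE 0.118, limma adjusted p = 0.00180), both under the fold threshold. The responses differed by 0.01 (95% interval −0.35 to 0.38, limma adjusted p = 0.962). After median-of-ratios scaling UH vs UN gave 0.93, SH vs SN 0.61 and the difference −0.33, none past the fold threshold.

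The 3 receptor genes summed to 98.6 ± 1.06 TPM (SD, n = 3) in UN, 166 ± 19.98 in UH, 105 ± 10.2 in SN and 235 ± 35.1 in SH. Rarg was the most abundant receptor in UN, UH and SN, with 54.5%, 48.9% and 62.2% of the sum, and Rara was the most abundant in SH with 55.1%. Rarb held the smallest mean share in every group, at most 8.79%. The share of mitochondrial transcripts, which moves the TPM of every other gene, was 6.10% in UN, 2.11% in UH, 8.10% in SN and 3.43% in SH, and its part in these levels was not tested.

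**Figure D3:**
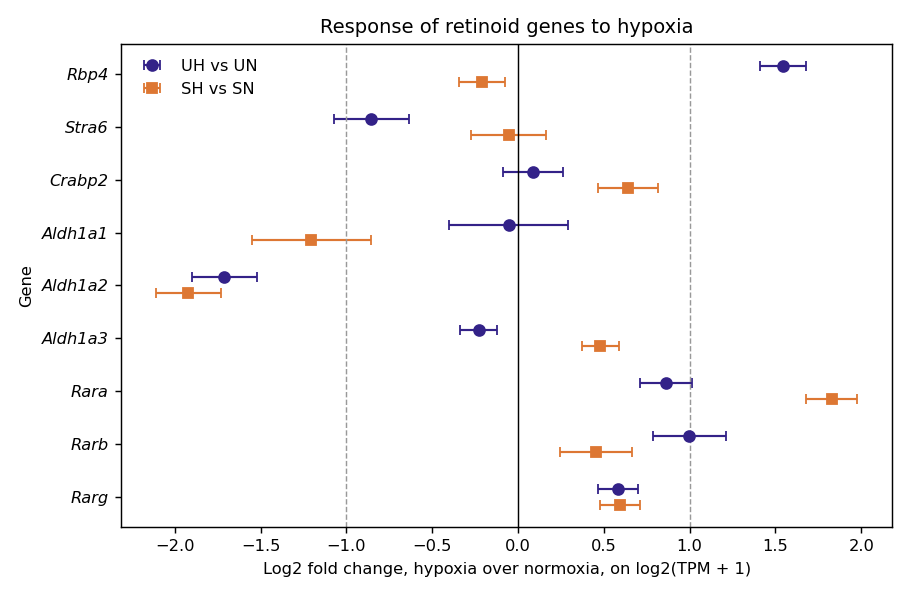
Log2 fold changes on the log2(TPM + 1) scale (horizontal axis) of the 9 genes (vertical axis) in UH vs UN (circles) and SH vs SN (squares). Bars are standard errors from the limma fit, and dashed lines mark the fold threshold of 1. Aldh1a2 lies beyond −1 in both comparisons, at −1.71 and −1.92, and Rara beyond 1 in SH vs SN at 1.83.

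In UH vs UN, 1 of the 7 tested members of the 9 was called lower by limma (Aldh1a2), where 11.8% of all genes tested were called lower. In the other direction 0 of the 7 were called (3 at an unadjusted limma p under 0.05), where 5.46% of all genes were called higher. After median-of-ratios scaling these shares of all genes were 6.46% and 8.29%, since the log2 fold changes of all genes had a median of −0.191 as deposited and 0 after scaling. With that scaling Rara and Rarb were called higher. In SH vs SN, 1 of the 7 was called higher (Rara) and 2 lower (Aldh1a1 and Aldh1a2), beside 7.47% and 5% of all genes. For the 9 genes the median was 0.09 in UH vs UN, beside −0.19 for all genes, and 0.45 in SH vs SN, beside 0.03, and for the difference it was 0.01, beside 0.25. For the difference between the responses, 0 of the 7 were called by limma, with Rbp4 at −1.75 (−2.10 after scaling) and Stra6 at 0.80 (0.48 after scaling, 1.13 without SH3) as descriptions, beside 8.08% of all genes called higher and 2.18% lower. After scaling, 4.78% of all genes were called higher and 4.14% lower for the difference, and its median over all genes was 0.0224. At an unadjusted limma p under 0.05 there were 4 of the 7 tested genes (Crabp2, Aldh1a1, Aldh1a3 and Rara).

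The RXR partners were measured as 3 genes. Rxra was at 48.6, 84.3 and 69.4 TPM in UN, 15.8, 22.2 and 23.4 TPM in UH, 47.5, 40.8 and 44.4 TPM in SN and 30.03, 27.8 and 23.1 TPM in SH. Hypoxic libraries all lay below normoxic ones, and UN lay above SN. Rxra fell in UH vs UN by 1.66 (SE 0.198, limma adjusted p = 3.67e-05), and in SH vs SN the change was −0.70, under the fold threshold. The difference between these responses was not called by limma. It passed at 1.17 without UN1, and at 1.01 to 1.06 when UH2, UH3, SN1 or SH3 was left out. Rxrb averaged 46.3 TPM in UN, 46.8 in UH, 58.5 in SN and 71.3 in SH, and Rxrg was at or below 0.106 TPM in every library. Of 8 receptor cofactors, Nrip1, a ligand-dependent corepressor, was higher in SN than in UN (log2 fold change 1.40, limma adjusted p = 0.00137) and in SH than in UH (1.43, limma adjusted p = 0.000927). For the response to hypoxia, 0 cofactors were called by limma in either UH or SH, and 3 in each stood at an unadjusted p under 0.05.

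Cyp26b1, which degrades retinoic acid and is induced by it, was at 8.61, 2.64 and 2.84 TPM in UN, 8.61, 11.6 and 12.4 TPM in UH, 15.2, 15.3 and 13.3 TPM in SN and 54.6, 56.1 and 36.5 TPM in SH. Levels were lowest in UN2 and UN3, SN lay above UH, and SH lay above all other groups, with UN1 level with UH1. Cyp26b1 rose in SH vs SN (log2 fold change 1.66, SE 0.320, limma adjusted p = 0.00152), in SN vs UN (1.61, limma adjusted p = 0.00239) and in SH vs UH (2.06, limma adjusted p = 0.000342). Its call in UH vs UN stood at 1.199 (limma adjusted p = 0.00892), and the change was 1.65 without UN1, 0.95 without UN2 and 0.99 without UN3, the latter values under the fold threshold. Cyp26a1 and Cyp26c1 were at or below 0.231 TPM in every library and were not tested.

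Of 22 genes known to be induced by retinoic acid, 17 were tested. Unsorted hypoxic cells had 3 called higher (Cyp26b1, Rarres2 and Meis2) and 2 lower (Tgm2 and Rarres1), and sorted hypoxic cells had 3 higher (Cyp26b1, Dhrs3 and Meis2) and 1 lower (Tgm2). Meis2 and Tgm2 are named because of these counts, after their values were seen. Rarres2, which encodes chemerin, was at 23.5, 23.0 and 21.8 TPM in UH, at or below 0.818 TPM in UN and 0.120 TPM in SN, and was listed at 0 in every SH library. Rarres1 averaged 10.6 TPM in UN, 0.826 in UH and 0.111 in SN. Tgm2, a transglutaminase, fell from 312 TPM in UN to 70.5 in UH and from 172 in SN to 64.9 in SH, while Meis2, a homeobox factor, rose from 25.6 to 78.8 TPM and from 24.5 to 70.9 TPM. The shares called higher and lower were 17.6% and 11.8% of the list for UH vs UN, beside 5.46% and 11.8% of all genes, and 17.6% and 5.88% for SH vs SN, beside 7.47% and 5%. Between sorted and unsorted cells, SN vs UN had 2 higher and 5 lower (11.8% and 29.4%, beside 3.20% and 7.57% of all genes), and SH vs UH 2 higher and 3 lower (11.8% and 17.6%, beside 7.65% and 5.35%). Without UN1, Hoxb2 (−0.99) and Meis1 (−0.89) lost and Tgm2 (−1.03) gained a call as lower in SN vs UN, named here after their values were seen. The Meis1 call was also lost after median-of-ratios scaling (−0.96) and without SN2 (−0.88).

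All other retinoid genes together numbered 64, and 53 were tested. Of these, 4 were higher in UH vs UN and 6 lower, against 6 higher in SH vs SN and 3 lower. Sorted cells had 3 higher in SN vs UN and 9 lower, against 5 higher in SH vs UH and 5 lower, which after median-of-ratios scaling were 2 and 7. The responses to hypoxia differed for 7, with 5 higher and 2 lower in the sorted response (9.43% and 3.77%, beside 8.08% and 2.18% of all genes). After median-of-ratios scaling 3 were higher and 2 lower, beside 4.78% and 4.14% of all genes. Without UN1, 9 were higher and 3 lower, while calls over all genes also rose, to 2117 higher and 636 lower from 1527 and 412. The pairwise counts were 7.55% and 11.3%, 11.3% and 5.66%, 5.66% and 17.0%, and 9.43% and 9.43% of the genes tested, beside the shares of all genes given above, of which the share lower in SN vs UN (7.57%) was the furthest from that of the retinoid genes. Their median log2 fold change was −0.24 in SN vs UN, beside −0.06 for all genes, −0.13 beside −0.19 in UH vs UN, 0.02 beside 0.03 in SH vs SN, 0.09 beside 0.17 in SH vs UH and 0.26 beside 0.25 for the difference.

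The genes with patterns most like Stra6 were sought by Pearson's r of log2(TPM + 1) over the 12 libraries among 13566 genes averaging 1 TPM or more, as a description. They were Spn (0.994), Ubl3 (0.985), Tmco6 (0.984), Fmnl1 (0.983) and Spns2 (0.983). Spn averaged 1.09 TPM in UN, 0.528 in UH, 6.18 in SN and 6.52 in SH. For Rbp4 they were Ppap2c (0.972), Bin1 (0.964), Dnajb12 (0.958), Ankrd1 (0.946) and Ptprk (0.944), and Ankrd1 averaged 258 TPM in UN, 720 in UH, 671 in SN and 686 in SH. The libraries fall in 4 groups, so these values mostly compare group means, and Spearman's rank correlation named other genes, with Sirt1, Notch1 and Mdc1 highest for Stra6 (0.979 each) and Fxyd5 for Rbp4 (0.923).

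On GRCm38, Rbp4 lies at chr19:38116629-38125281 on the minus strand and Aldh1a1 at chr19:20492715-20643465 on the plus strand. Stra6 (chr9:58063788-58153996) and Aldh1a2 (chr9:71215789-71296243) are on the plus strand of the same chromosome. Crabp2 is at chr3:87948666-87953376 (plus), Aldh1a3 at chr7:66390890-66427517 (minus), Rara at chr11:98927818-98974942 (plus), Rarb at chr14:16430839-16819156 (minus) and Rarg at chr15:102234938-102257517 (minus). Stra6 overlaps Ccdc33 on the opposite strand, and Gm16131, which was listed at 0. Ccdc33 averaged 0.274 TPM in UN, 0.0627 in UH, 0.304 in SN and 0.968 in SH. Rarb overlaps Top2b on the opposite strand, which averaged 67.6 TPM in UN, 39.4 in UH, 57.5 in SN and 43.0 in SH. The library kit marked strand, but whether reads were assigned by strand is not given in the sources used here.

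Promoter sequences from RefSeq (GRCm38.p6, 250 bases before to 50 after each start) matched 7 of the 9 genes with 16 windows, and Crabp2 and Aldh1a3 had no entry. Retinoic acid response elements are direct repeats of a hexamer, searched on both strands as AGGTCA, with a changed base as GGGTCA, with another changed base as AGTTCA or with both changes as GGTTCA, spaced by 1, 2 or 5 bases. The hexamer alone stood in 7 of the 16 windows, beside 43.7% of 32851 mouse promoters. A repeat spaced by 5 stood in 1 of the 16 windows, that of Rarb, and in 0.097% of the mouse promoters, and repeats spaced by 1 or 2 stood in 0 windows, beside 0.222% and 0.268% of promoters. The 30 bases around the Rarb repeat are shown because retinoic acid induces Rarb through such a repeat, at chr14:16575506-16575535 on the minus strand, within exons of the annotated transcripts Rarb-201 and Rarb-207. The repeat is in capitals.
Rarb: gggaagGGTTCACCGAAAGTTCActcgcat

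The core letters of hypoxia response elements, ACGTG or GCGTG, stood in 7 of the 16 windows, in 5 genes (Rbp4, Aldh1a2, Rara, Rarb and Rarg), beside 43.8% of all promoters. Windows of Rara and Aldh1a2 are shown because these genes were called in SH vs SN in opposite directions. Aldh1a1, also called lower in SH vs SN, held neither core in its windows. In Rara the letters ACGTG stand on both strands as a palindrome, here in capitals within 30 bases at chr11:98937696-98937725 (plus strand) in annotated exons of Rara-201 and Rara-204. For Aldh1a2 the 250 bases before its start, chr9:71215539-71215788 (plus strand), overlap no annotated exon, and capitals mark GCGTG and, on the minus strand, ACGTG. These matches are descriptions of letters and not of binding.
Rara: tttcagcctctgCACGTGactcgccatggc
Aldh1a2: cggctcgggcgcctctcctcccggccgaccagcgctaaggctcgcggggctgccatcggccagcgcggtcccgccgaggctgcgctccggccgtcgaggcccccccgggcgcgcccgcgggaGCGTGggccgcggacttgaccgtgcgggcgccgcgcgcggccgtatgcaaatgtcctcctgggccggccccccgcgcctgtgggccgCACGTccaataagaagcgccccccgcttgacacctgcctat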

How the data were processed

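RNA-seq of BN1-Tie2-EGFP cells gave 12 libraries in 4 groups of 3. The deposited values are TPM, which the authors made with nf-core/rnaseq 3.12.0 and Salmon and summed by gene. The genome was mm10 according to the submitters' processing notes, and the annotation is not given in the sources used here. TPM keeps no read counts, so depth and counting error are unknown.

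Genes with a mean of at least 0.1 TPM over the 12 libraries (18909 of 45706) were fitted as log2(TPM + 1) in limma 3.58.1 (R 4.3.3), with 1 mean per group, empirical Bayes with trend and Benjamini-Hochberg adjustment. A gene was called at an adjusted p under 0.05 and an absolute log2 fold change above 1. The comparisons were UH vs UN, SH vs SN, SN vs UN, SH vs UH and the difference of the first pair of responses.

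The 9 genes and all lists were chosen with earlier results of these data known. Sorted against unsorted comparisons of the 9 genes, and every comparison of Stra6 and Rbp4, have no test. Lists were carriers and uptake, ester storage, interconversion of retinol and retinaldehyde, breakdown, RXRs, receptor cofactors and genes induced by retinoic acid, with stellate, fibroblast, endothelial, hepatocyte, cholangiocyte, macrophage and adipocyte markers. Named genes were the 9, the label checks, in each other retinoid list the called genes with the 3 largest absolute changes in any pairwise comparison, genes a sentence on the pathway needs, and the 5 genes most like Stra6 and like Rbp4; results of some genes that this rule names were left out as withheld. Ester storage had 4 tested genes, of which limma called 1 (Ces1d), higher in SN vs UN and lower in SH vs SN (25% of the list, beside 3.20% and 5% of all genes).

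Alternatives were a pseudocount of 0.1, no filter, a filter at a mean of 1 TPM, median-of-ratios scaling, a block for the replicate number, a fit of the compared groups alone, leaving out each library and, for likeness, Spearman's correlation. Coordinates came from GENCODE M21, with 98.8% of gene identifiers matched. Python 3.11.15, pandas 2.3.3 and matplotlib 3.10.9 were used for sequences and figures.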

Additional observations from a re-analysis of the deposited data

Results flagged for a closer look

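The log2 response to hypoxia differed between sorted and unsorted cells (limma test of the difference, sorted minus unsorted) for 7 of 53 retinoid genes, with 9.43% higher and 3.77% lower, beside 8.08% and 2.18% of all genes. With median-of-ratios scaling 3 of these genes were higher and 2 lower, beside 4.78% and 4.14% of all genes. Without UN1 the counts were 9 higher and 3 lower, while calls over all genes also rose, to 2117 higher and 636 lower from 1527 and 412. For Rarres2 the difference was −4.18 (limma adjusted p = 1.61e-06), with UH libraries at 21.8 to 23.5 TPM SN libraries at or below 0.120 TPM and SH libraries listed at 0. For Rarres1 it was 2.58 (limma adjusted p = 0.000234), where the mean was already 0.111 TPM in SN and so could hardly fall further in SH, and for Rbp2 it was 2.26 (limma adjusted p = 0.000757). For Dhrs9 it was 1.94 (limma adjusted p = 0.0108), and for Ces1d it was −1.29 (limma adjusted p = 0.00413). Ces1d averaged only 0.549 TPM in UN and 0.0973 in UH, and so could hardly fall in UH on the log2(TPM + 1) scale. With a pseudocount of 0.1 it was called lower in UH vs UN as well (−1.85, limma adjusted p = 0.00998). Its call for the difference was then lost (−1.81, limma adjusted p = 0.0947, in a range of 0.00118 to 0.0947 over the alternatives). For Rdh5 it was 1.2 (limma adjusted p = 0.00606) and for Dhrs3 1.06 (limma adjusted p = 0.0109), and after median-of-ratios scaling these were 0.90 and 0.72, under the fold threshold. The call for Dhrs3 was also lost without SN3 (0.97), SH1 (0.91) or SH2 (0.99). For Rbp4 the difference was −1.75 and was not tested, since Rbp4 had been selected on these data. Every UH library lay above every UN library, and every SH library below every SN library. Such a lack of overlap, in either direction, held for 51.1% and 56.8% of all genes.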

How the results depend on the processing

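Of 45 log2 fold changes of the 9 genes, 24 kept their side of the thresholds, or stayed within the spread of libraries where untested, in every alternative that gave a value. No called value changed sign. Uncalled values near 0 did, such as Stra6 in SH vs SN (−0.05, and 0.27 without SH3), Aldh1a1 in UH vs UN (−0.05, and 0.50 without UN1) and Crabp2 in UH vs UN (0.09, with a range of −0.11 to 0.34). Aldh1a2 kept its calls in both responses to hypoxia, and Rara its call in SH vs SN, in all of them. Crabp2 and Aldh1a3 gave no value with the filter at a mean of 1 TPM.

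With a pseudocount of 0.1, 1580 genes were higher in UH vs UN and 2854 higher in SH vs SN, while SN vs UN had 990 higher and 2402 lower, and SH vs UH had 2810 higher and 1550 lower. Rbp4 and Stra6 are left out of the calls among the 9 genes here and below, although the planned counts held them. Among the tested genes of the 9, Rarb was then higher in UH vs UN. In SH vs SN Rara, Crabp2 and Aldh1a3 were higher, and Aldh1a3 was higher for the difference. Of the other retinoid genes, 10 were lower in UH vs UN, 5 lower in SH vs SN and 15 lower in SN vs UN, SH vs UH had 8 higher and 10 lower, and the difference had 8 higher and 1 lower. A smaller pseudocount enlarges changes of low genes by its construction. Crabp2 and Aldh1a3 both passed in SH vs SN, at 1.35, and Aldh1a3 passed for the difference at 2.09.

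With median-of-ratios scaling, UH vs UN had 1566 calls higher with 1221 lower, SH vs UH 1022 with 1326, and the difference 903 with 783. Of the tested genes among the 9, Rara and Rarb were higher in UH vs UN. Of the other retinoid genes 2 were higher in SH vs UH with 7 lower, and 3 were higher for the difference. Calls that were higher made up 56.2% of calls in UH vs UN, against 31.7% as deposited, and 43.5% in SH vs UH against 58.8%. Most calls in UH vs UN were thus lower as deposited and higher after scaling, and the reverse held in SH vs UH. These shares reflect calls gained and lost, and do not show that single genes changed direction. With the filter at a mean of 1 TPM, 1 other retinoid gene was lower for the difference, beside 387 of all genes.

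Leaving out each library in turn, Rarb gained a call as higher in UH vs UN without UN1, UH1 or UH2. Aldh1a1 lost its call in SH vs SN without SN1. For the difference, among tested genes of the 9 only Rara was ever higher, and only Aldh1a1, without UN1, ever lower. Other retinoid genes ranged over 3 to 7 higher in SH vs UH and 4 to 9 higher for the difference. All genes ranged over 1303 to 1630 and 1270 to 2117 in these, and over 344 to 636 lower for the difference. The cause of these changes was not tested.

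With the replicate number as a block, UH vs UN had 1032 calls higher with 2224 lower, SH vs SN 1410 with 947, SN vs UN 605 with 1428, SH vs UH 1458 with 1009, and the difference 1522 with 400. Libraries of the same number correlated at −0.0631 to 0.141 between the groups compared after removing group means, so little shared effect of the number was seen. Whether libraries of the same number were handled together is not stated, and these values cannot decide it. Among other retinoid genes 2 results were weaker in the fit of the compared groups alone, 18 weaker and 26 stronger on leaving out 1 library, 7 weaker and 3 stronger with scaling, and 1 weaker and 26 stronger with the pseudocount. TPM gives no depth, so limits of detection are unknown.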
